A study of Mus musculus with 12 samples.

Results

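The genes described here are 8 genes of the hyaluronan and versican matrix and of a further matrix protein, Vit, taken from the 19747 named genes on the array. They are the hyaluronan synthases Has1, Has2 and Has3, the proteoglycan versican (Vcan), the link protein Hapln1, the receptor Cd44, the hyaluronidase Hyal2, and vitrin (Vit). Every non-control probe whose transcript identifier mapped to one of them was used, which gave 13 probes. The genes were selected on these measured differences in signal between the genotypes, which were already known. The differences of the members are therefore given as a description, without p-values. Where members are said to lie past a threshold, that too is a description of the fit. The study compared whole female mouse embryos at embryonic day 9.5 to ask which genes change without functional Chd7, a chromatin remodeller, when neural crest cells migrate. Total RNA of 4 Chd7+/+ (wild-type), 4 Chd7Whi/+ (heterozygous) and 4 Chd7Whi/Whi (homozygous) samples was labelled with Cy3 and hybridised to 12 one-colour Agilent whole-genome arrays. All 3 genotypes came from the whirligig mouse line on a mixed C3HeB/FeJ background, from matings of heterozygous parents, and embryos were freed from the yolk sac. The labels, which also call the homozygotes knockout, name no treatment agent. The allele is carried by every cell of the embryo, and the labels do not say whether a sample is 1 embryo. They call the samples biological replicates, and replicate numbers below follow deposition order and only name a sample.

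Hyaluronan is a long unbranched sugar polymer that the synthases make at the cell membrane and extrude into the space around the cell. Versican binds hyaluronan through its N-terminal domain, link proteins such as Hapln1 hold both together, and the chondroitin sulfate chains of versican draw in water, so that the matrix swells. In the mid-gestation embryo this matrix fills the cardiac jelly and the mesenchyme and lies along the paths of neural crest cells, and mice without Has2 or versican die with failed heart development. Vitrin is a secreted protein with von Willebrand factor A domains and an LCCL domain. It is not known as a part of the hyaluronan machinery.

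Values below are log2 processed signal minus the 75th percentile of the same array, called scaled log2 signal, so a value of 0 is the array's own upper quartile. The level of one probe is not compared with that of another. The 75th percentile lay between 1095 and 1721 signal units, between 69.3% and 75.7% of the probes exceeded background by the scanner's own test (called well above background here), and no spot was saturated. The arrays lay on 3 slides of 4, each of which held all 3 genotypes. Position 1 of the slides held 3 arrays, all of them wild-type (replicates 1, 2 and 4), and only position 3 held both homozygous and wild-type arrays. Chd7 was not analysed here, so the targeted gene gives no check of the genotype labels. In whole-embryo RNA, fewer cells of a type and less RNA per cell cannot be told apart.

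On the brightest probe of each gene, Has2, Vcan, Hapln1 and Vit gave lower signal in Chd7Whi/Whi than in wild-type embryos, with no overlap between the 2 groups of arrays. The log2 differences were -0.92 ± 0.13 (SE) for Has2, -0.75 ± 0.10 for Vcan, -0.82 ± 0.13 for Hapln1 and -2.11 ± 0.14 for Vit, or 1.89-fold, 1.68-fold, 1.77-fold and 4.30-fold lower. On their brightest probes Has3, Cd44 and Hyal2 overlapped between these genotypes, and Has1 was near background. The 2 further probes of Vcan overlapped too, and 1 further probe of Cd44 did not overlap and was higher in homozygous arrays. In the limma fit across all genes, 4 of the 7 members tested lay past the threshold (adjusted p under 0.05), all lower, where 1.35% of all genes tested did and 0.863% did so in the lower direction. At an unadjusted p under 0.05 the same 4 of 7 passed, beside 17% of all genes. With the first number in the sample title as a block in the fit, 1 of the 4, Vit, stayed past the threshold. Homozygous replicates 1 and 4 have title numbers that no other array shares, so they drop out of that comparison. With array position on the slide as a block, the homozygous against wild-type difference rests on 1 wild-type array, replicate 3. The selection of the genes used these same comparisons, so nothing is read from these counts. The median log2 difference of the 7 members was -0.75, beside 0.02 over all genes tested.

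**Figure D1:**
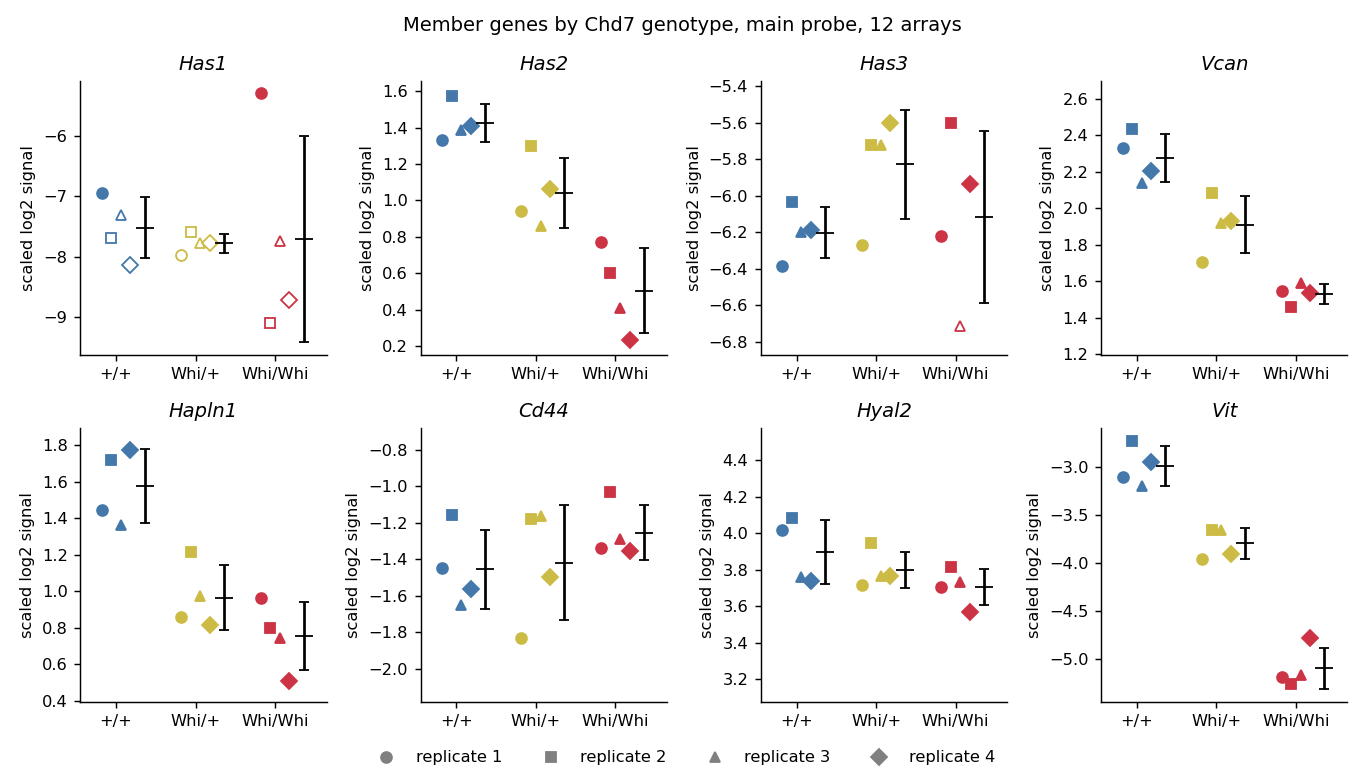
Scaled log2 signal of each member's main probe (log2 processed signal minus the array's 75th percentile) in the 4 arrays of each genotype. Points are arrays, open where the probe was not well above background, and the black marks are the genotype mean with its SD (n = 4). The y axes do not start at 0 and differ between genes. Has2, Vcan and Vit stepped down from wild type to heterozygous to homozygous without overlap, whereas Has3, Cd44 and Hyal2 overlapped.

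Has2 is the main hyaluronan synthase of the embryo. Its probe (A_51_P213359) read 1.33, 1.57, 1.39 and 1.41 in wild-type replicates 1 to 4, 0.94, 1.30, 0.86 and 1.06 in the heterozygous ones, and 0.77, 0.60, 0.41 and 0.24 in the homozygous ones. The 3 genotypes did not overlap, and the highest heterozygous array (replicate 2) lay just under the lowest wild-type array. Group means were 1.43 ± 0.10 (SD, n = 4), 1.04 ± 0.19 and 0.51 ± 0.23. Heterozygous embryos were lower than wild type by a log2 difference of -0.38 ± 0.13 (SE), and homozygous embryos lower than heterozygous ones by -0.54 ± 0.13. The heterozygous mean differed from the midpoint of the other genotypes by 0.08 ± 0.11.

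Has2os is a transcript on the opposite strand that overlaps Has2, and it had a probe of its own (A_55_P2075191). It read -3.80, -4.00, -3.96 and -4.00 in wild-type arrays, -3.93, -4.38, -3.75 and -3.63 in heterozygous arrays, and -4.19, -4.14, -4.21 and -4.26 in homozygous arrays. The homozygous arrays all lay below the wild-type ones and the heterozygous arrays spread across both. The difference of homozygous from wild type was -0.26 ± 0.14 with an adjusted p of 0.369 in the limma fit, so it did not pass the threshold.

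The other synthases make hyaluronan too, and their probes were dim. The Has1 probe (A_51_P492456) was well above background on 2 of 12 arrays, wild-type replicate 1 and homozygous replicate 1, and was not tested. It read -6.94, -7.69, -7.30 and -8.13 in wild-type, -7.96, -7.58, -7.77 and -7.78 in heterozygous, and -5.30, -9.09, -7.73 and -8.71 in homozygous arrays. Its highest and lowest values both came from homozygous arrays. The Has3 probe (A_55_P2102260) was well above background on 11 of 12 arrays, all except homozygous replicate 3. It read -6.38, -6.03, -6.20 and -6.19 in wild-type, -6.27, -5.72, -5.72 and -5.60 in heterozygous, and -6.22, -5.60, -6.71 and -5.93 in homozygous arrays. The genotypes overlapped, with differences from wild type of 0.08 ± 0.22 in homozygous and 0.37 ± 0.22 in heterozygous embryos. The homozygous difference turned to -0.27 both with normexp background correction and with array position as a block, so no direction is given for Has3. After normexp wild-type replicate 2 read -2.54 and the other wild-type arrays -4.29 to -4.05. The position value rests on 1 wild-type array.

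Versican was read by 3 probes. The main one, the brightest of them (A_55_P1960202, mapped to NM_001081249), read 2.33, 2.44, 2.14 and 2.21 in wild-type, 1.70, 2.09, 1.92 and 1.93 in heterozygous, and 1.55, 1.46, 1.59 and 1.54 in homozygous arrays. The genotypes did not overlap, and the homozygous arrays had the narrowest spread. Group means were 2.28 ± 0.13 (SD, n = 4), 1.91 ± 0.16 and 1.53 ± 0.05. The difference from wild type was -0.37 ± 0.10 (SE) in heterozygous embryos and the homozygous level was -0.38 ± 0.10 from the heterozygous one. The heterozygous mean lay 0.01 ± 0.09 from the midpoint.

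The other 2 Vcan probes, both mapped to NM_172955, did not separate the genotypes. Probe A_52_P1044655 read -3.69, -4.61, -3.53 and -3.35 in wild-type, -3.75, -4.87, -3.67 and -3.53 in heterozygous, and -4.06, -4.93, -4.25 and -3.75 in homozygous arrays. The lowest array of each genotype on this probe was replicate 2, a number that only names a sample. Probe A_55_P1960208 read -0.04, -0.18, 0.62 and 0.57 in wild-type, 0.19, -0.34, 0.71 and 0.85 in heterozygous, and -0.13, -0.04, 0.05 and 0.13 in homozygous arrays. Homozygous minus wild-type differences were -0.45 ± 0.35 (SE) on the first and -0.24 ± 0.25 on the second. In the fit on every probe, in which 1.22% of probes passed, neither did, and both had larger errors than the main probe. Whether the probes differed from one another was not tested.

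Hapln1 is the link protein that clamps versican to hyaluronan. Its probe (A_66_P117730) read 1.44, 1.72, 1.36 and 1.78 in wild-type, 0.86, 1.21, 0.97 and 0.81 in heterozygous, and 0.96, 0.80, 0.74 and 0.51 in homozygous arrays. Both mutant genotypes lay entirely under wild type, and they overlapped each other. Group means were 1.58 ± 0.20 (SD, n = 4), 0.96 ± 0.18 and 0.75 ± 0.19. The heterozygous difference from wild type was -0.61 ± 0.13 (SE), or 1.53-fold, and the homozygous level was -0.21 ± 0.13 from the heterozygous one. The heterozygous mean lay -0.20 ± 0.12 from the midpoint, which did not pass the threshold.

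Vcan and Hapln1 are neighbours on chromosome 13, where the RefSeq gene table lists only the pseudogene Gm8546 between them. Because the 2 genes lie side by side, their promoter windows are printed here, from RefSeq on build GRCm38.p6. Each runs from 250 bases before to 50 after the gene start. RefSeq promoter entries matched 5 of the 8 members (Has1, Vcan, Hapln1, Cd44 and Hyal2), and entries for Has2, Has3 and Vit are missing. The windows are chr13:89742463-89742762 on the minus strand for Vcan and chr13:89540386-89540685 on the plus strand for Hapln1. Capitals mark the E-box letters CANNTG, which basic helix-loop-helix factors such as Twist1 read.
Vcan: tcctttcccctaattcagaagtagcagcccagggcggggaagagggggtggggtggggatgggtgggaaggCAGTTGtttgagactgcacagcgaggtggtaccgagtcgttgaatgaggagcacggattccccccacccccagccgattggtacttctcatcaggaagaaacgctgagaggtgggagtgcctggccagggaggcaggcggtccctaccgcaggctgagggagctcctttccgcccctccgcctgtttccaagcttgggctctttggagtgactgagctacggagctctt
Hapln1: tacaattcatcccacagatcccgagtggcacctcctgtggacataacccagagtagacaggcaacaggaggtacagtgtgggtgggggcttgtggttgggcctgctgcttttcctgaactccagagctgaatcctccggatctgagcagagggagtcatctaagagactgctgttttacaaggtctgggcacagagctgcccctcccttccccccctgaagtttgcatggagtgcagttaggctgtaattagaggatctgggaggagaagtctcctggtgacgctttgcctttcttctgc
The Vcan window held 1 CANNTG match, CAGTTG from position 72 of the window, and the Hapln1 window held 0, while 72.3% of the 32851 promoter windows of the same length held at least 1. Motifs were searched on both strands. GGGCGG was present 2 times in the Vcan window and 0 times in that of Hapln1 (35.7% of all windows hold it), and CCAAT 1 time and 0 times (37.4%). TATAAA (13.6% of windows) and CACCTG (20.2%), a form of CANNTG, were in neither. These are matches of letters in the window and not binding sites.

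Cd44 is the main cell-surface receptor for hyaluronan, and it was read by 4 probes. The brightest (A_55_P2064043) read -1.44, -1.16, -1.65 and -1.56 in wild-type, -1.83, -1.18, -1.16 and -1.50 in heterozygous, and -1.34, -1.03, -1.29 and -1.36 in homozygous arrays. The genotypes overlapped, and the difference from wild type was 0.20 ± 0.16 (SE) in homozygous and 0.04 ± 0.16 in heterozygous embryos. Probe A_55_P2166501 read -4.39, -4.03, -4.09 and -4.26 in wild-type, -4.20, -4.22, -3.59 and -3.63 in heterozygous, and -3.63, -3.57, -3.82 and -3.80 in homozygous arrays. On this probe the homozygous arrays lay above all wild-type ones, by 0.49 ± 0.16, which did not pass the threshold over all probes.

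The other 2 Cd44 probes were dim. Probe A_55_P2166488 was well above background on 10 of 12 arrays and read -4.04, -6.19, -6.80 and -6.53 in wild-type, -6.84, -6.14, -5.70 and -5.49 in heterozygous, and -5.93, -5.84, -6.28 and -5.72 in homozygous arrays. Wild-type replicate 1 was the highest array there, and the homozygous difference was -0.05 ± 0.51 (SE). Probe A_55_P2166486 was well above background on 1 of 12 arrays, homozygous replicate 1, and was not tested. It read -9.31, -7.87, -6.77 and -7.58 in wild-type, -7.52, -8.80, -7.53 and -8.63 in heterozygous, and -6.51, -7.33, -6.95 and -8.08 in homozygous arrays.

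Hyal2 is a membrane-anchored hyaluronidase that cuts long hyaluronan into fragments. Its probe (A_51_P284577) read 4.02, 4.08, 3.76 and 3.74 in wild-type, 3.72, 3.95, 3.77 and 3.77 in heterozygous, and 3.71, 3.81, 3.73 and 3.57 in homozygous arrays. The genotypes overlapped. The differences from wild type were -0.19 ± 0.10 (SE) in homozygous and -0.10 ± 0.10 in heterozygous embryos, neither past the threshold.

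**Figure D2:**
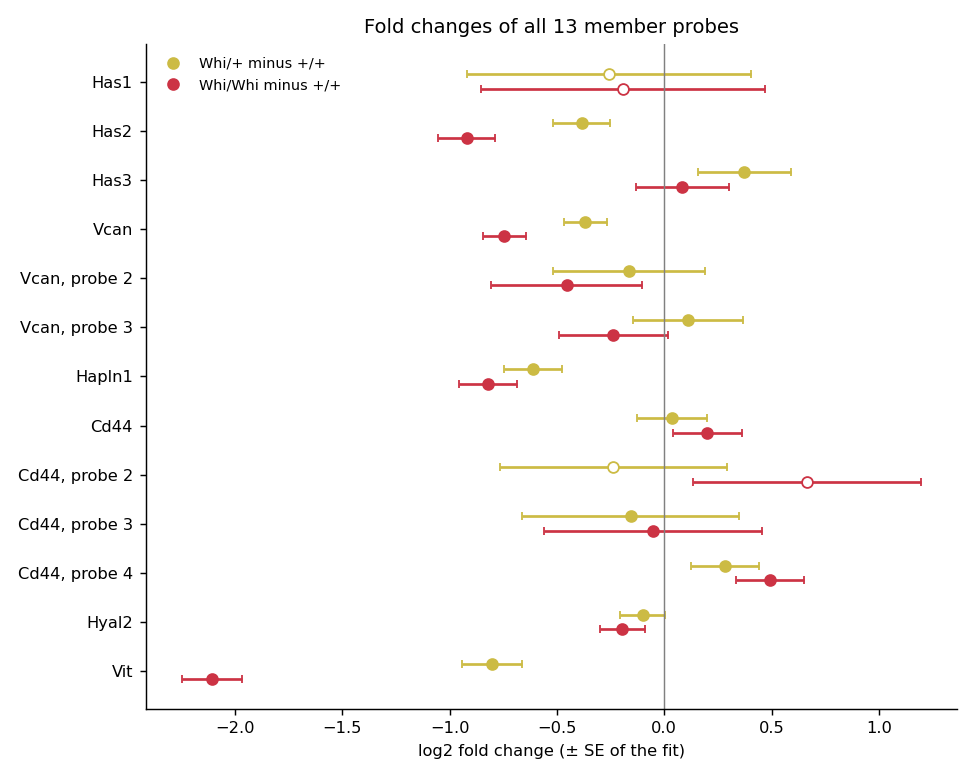
Log2 difference of each mutant genotype from wild type for all 13 member probes (x axis, log2 scale), with points for the estimate, bars for the standard error of the fit and open points for the 2 probes not tested. Vcan probes 2 and 3 are A_52_P1044655 and A_55_P1960208, and Cd44 probes 2, 3 and 4 are A_55_P2166486, A_55_P2166488 and A_55_P2166501. The main Vcan probe lay at -0.75 in homozygous embryos and the other 2 Vcan probes at -0.45 and -0.24, and Vit lay furthest from 0 at -2.11.

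Vit was well above background on 12 of 12 arrays. Its probe (A_51_P298107) read -3.10, -2.72, -3.19 and -2.94 in wild-type, -3.95, -3.65, -3.65 and -3.90 in heterozygous, and -5.18, -5.26, -5.17 and -4.77 in homozygous arrays. All wild-type arrays lay above all heterozygous arrays and these above all homozygous arrays. Group means were -2.99 ± 0.21 (SD, n = 4), -3.79 ± 0.16 and -5.09 ± 0.22. Heterozygous embryos were 1.74-fold lower than wild type (-0.80 ± 0.14, SE), and homozygous embryos 2.47-fold lower than heterozygous ones (-1.30 ± 0.14). The heterozygous mean lay 0.25 ± 0.12 from the midpoint, which did not pass the threshold. With normexp background correction the homozygous difference of Vit from wild type was -1.32, still past the threshold. That from heterozygous embryos was -0.73, no longer past it. After this correction wild-type replicate 2 read -1.76 and the other wild-type arrays -2.71 to -2.53. The correction was run with an offset of 50 signal units, and the part of the offset in these smaller differences was not tested. Processed signal of Vit was at most 58.1 units in homozygous arrays, against 152 to 212 in wild-type arrays.

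Between heterozygous and wild-type embryos, 0 of the 7 tested members passed the threshold in the limma fit, where 0.00886% of all genes did. At an unadjusted p under 0.05, 4 of the 7 did (Has2, Vcan, Hapln1 and Vit), where 15.4% of all genes did. The median difference of the 7 was -0.37, beside 0.04 over all genes. Between homozygous and heterozygous embryos 1 of the 7, Vit, passed, where 0.0133% of all genes did, and 3 of the 7 did at an unadjusted p under 0.05 (5.99%). That call of Vit was lost with normexp, quantile normalization, position or title number as a block, or a fit on only these genotypes, and without homozygous replicate 1 (-1.27) or heterozygous replicate 2 or 3 (-1.26 each).

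Of the 4 further probes of Vcan and Cd44 that were tested, 0 passed in homozygous against wild-type embryos in the limma fit on every probe (1.22% of all probes did), and 1, Cd44 probe A_55_P2166501, did at an unadjusted p under 0.05 (16.5%). In heterozygous against wild-type embryos 0 of the 4 passed (0.00725%), and 0 did unadjusted (15.1%). In homozygous against heterozygous embryos 0 passed (0.0109%) and 0 did unadjusted (5.69%). For the difference of heterozygotes from the midpoint of the other genotypes 0 of 7 passed (0% of all genes), and 0 of 7 did so at an unadjusted p under 0.05 (7.81%).

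Has2, Vcan and Vit were 3 of the 45 genes, of 22585, whose arrays fell in the order wild type, heterozygous, homozygous with no overlap between any 2 genotypes, a share of 0.199%. Non-overlapping wild-type and homozygous arrays were found for 4 of the 7 members, all lower, where 14.1% of all genes did not overlap and 8.22% were lower without overlap. For heterozygous against wild type 4 of 7 did not overlap, all lower, beside 6.67% of all genes in either direction and 2.18% lower. For homozygous against heterozygous 3 of 7 did not overlap, all lower, beside 2.99% and 1.66%. These counts follow from the values that chose the genes and are given as a description.

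Within each slide the 4 genes kept their direction. Homozygous minus wild-type differences on slides 1, 2 and 3 were -0.56, -0.88 and -1.08 for Has2, -0.78, -0.83 and -0.64 for Vcan, -0.48, -0.74 and -1.15 for Hapln1, and -2.08, -2.30 and -2.03 for Vit. Heterozygous minus wild-type differences were -0.21, -0.62 and -0.34 for Has2 and -0.43, -0.37 and -0.27 for Vcan. They were -0.41, -0.57 and -0.96 for Hapln1 and -0.70, -0.70 and -0.96 for Vit. Each slide value rests on 1 or 2 arrays of a genotype. Within position 3, with 2 homozygous arrays and 1 wild-type array, the differences were -0.80 for Has2, -0.57 for Vcan, -0.51 for Hapln1 and -1.98 for Vit. With position as a block in the limma fit, the homozygous minus wild-type differences are these position 3 values, because position 1 held wild-type arrays only. The heterozygous minus wild-type differences in that fit rest on the same wild-type array and were -0.17 for Has2, -0.16 for Vcan and -0.20 for Hapln1. Genotype and position cannot be fully told apart in this layout. Hapln1 was not past the threshold without wild-type replicate 4, at -0.76.

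**Figure D3:**
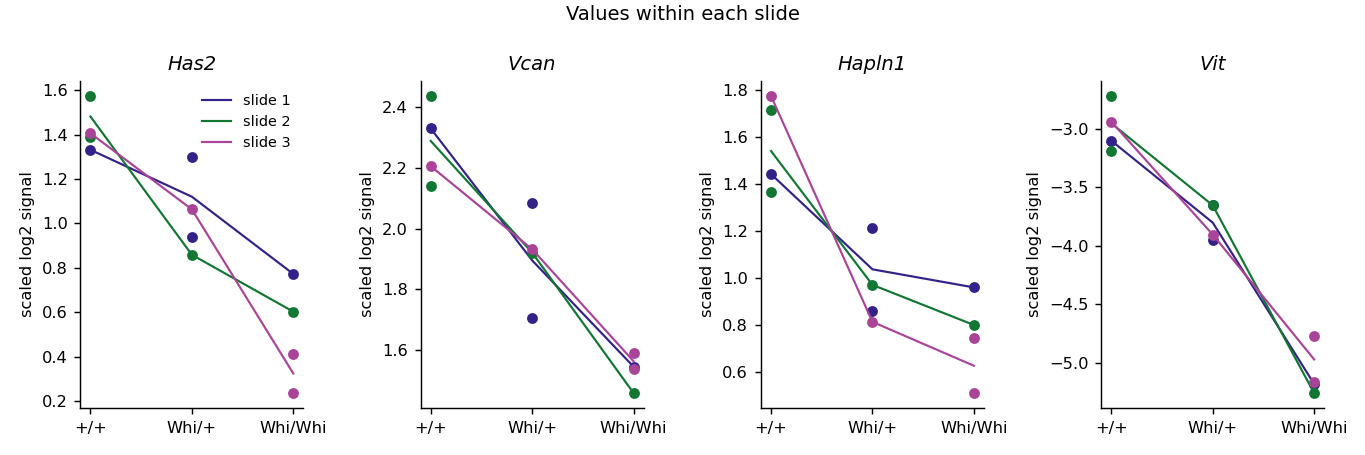
Scaled log2 signal of Has2, Vcan, Hapln1 and Vit by genotype, coloured by slide, with points for arrays and lines joining the genotype means of 1 slide. On each of the 3 slides the mean steps down from wild type to heterozygous to homozygous, and homozygous minus wild-type Vit lies between -2.30 and -2.03.

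Across the 12 arrays, which share the genotype steps, the main probes of Has2, Vcan, Hapln1 and Vit correlated with each other. Pearson's r was 0.96 for Vcan and Vit, 0.92 for Has2 and Vcan, 0.90 for Has2 and Hapln1, 0.89 for Has2 and Vit, 0.88 for Vcan and Hapln1 and 0.83 for Hapln1 and Vit. After each genotype's mean was subtracted, r was 0.75 for Has2 and Hapln1, 0.58 for Vcan and Vit, 0.43 for Vcan and Hapln1, 0.39 for Has2 and Vcan, 0.22 for Hapln1 and Vit, and -0.11 for Has2 and Vit. Hyal2 correlated with Vcan at 0.73, and at 0.70 after the means were subtracted. With these 4 genes, r lay between -0.17 and 0.02 for Has3 and between -0.29 and -0.10 for Cd44. After the means were subtracted, it lay between 0.09 and 0.28 for Has3 and between 0.35 (with Has2) and 0.73 (with Vcan) for Cd44. These are descriptions over 12 arrays and carry no test.

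Of the 15022 named genes tested, those whose signal over the 12 arrays was most like Vcan were Dnajc1 (r = 0.97), Alx1 (0.97), a homeobox gene of craniofacial mesenchyme, and Vopp1 (0.96). Vit was most like Alx1 (0.97), Vopp1 (0.96) and Vcan (0.96), so both shared Alx1 and Vopp1. The r values that rank the genes here include the genotype steps. After each genotype's mean was subtracted, r with Vcan was 0.77 for Dnajc1, 0.74 for Alx1 and 0.74 for Vopp1. With Vit it was 0.61 for Alx1, 0.74 for Vopp1 and 0.58 for Vcan. Has2 was most like Lhfp (0.96), Slitrk1 (0.95) and Anxa1 (0.95), and Hapln1 was most like Dlg3, Klhl13 and Arpc5 (0.96 each). The number of genes with r over 0.9 was 51 for Vcan, 50 for Vit, 46 for Hapln1, 26 for Has2 and 25 for Hyal2, and 0 for Cd44 and Has3. Hyal2 was most like Rnpc3 (0.97), Ptbp2 (0.94) and Rbm17 (0.94). For Cd44 the nearest were Ypel2 (0.84), Orai2 (0.84) and Shoc2 (0.83), and for Has3 Tbk1 (0.84), Atp6v1e1 (0.83) and Olfr12 (0.83).

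Of the other genes of the pathway, 67 were tested in 7 lists, and 1, Tnfaip6, passed the threshold in homozygous against wild-type embryos. That share, 1.49%, is near the 1.35% of all genes, and 11 of the 67 (16.4%) had an unadjusted p under 0.05, beside 17% of all genes. Tnfaip6 (TSG-6) carries a hyaluronan-binding link module and transfers heavy chains of inter-alpha-inhibitor onto hyaluronan. It read -0.81, -1.15, -1.34 and -1.11 in wild-type, -1.50, -1.43, -2.05 and -2.19 in heterozygous, and -2.60, -2.66, -2.18 and -1.86 in homozygous arrays. Homozygous and heterozygous arrays both lay under all wild-type arrays, and overlapped each other. Homozygous minus wild type was -1.22 ± 0.22 (SE) with an adjusted p of 0.0196 in limma, and heterozygous minus wild type was -0.69 ± 0.22 with an adjusted p of 0.24. On its other probes, tested in the fit on every probe, the homozygous difference was -1.29 ± 0.27 (A_55_P2147083, adjusted p = 0.0447) and -0.94 ± 0.28 (A_55_P2001818, adjusted p = 0.141). With position as a block, where the comparison rests on 1 wild-type array, the difference was -1.05, and that fit cannot show that the call holds. The call was lost with the number in the sample title as a block (-1.21, adjusted p = 0.174). It was also lost in 5 of the limma fits that left out 1 array: without homozygous replicate 1 (-1.13, adjusted p = 0.0618), 2 (-1.11, 0.0708) or 3 (-1.27, 0.0505), or without wild-type replicate 1 (-1.12, 0.0673) or 4 (-1.22, 0.068).

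Differences of these 7 lists, which were written by function with earlier results known, are given for homozygous against wild-type embryos. Over all genes tested the median was 0.02 and 46.5% were lower in value. Of 7 genes making the sugar precursors, 0 passed (1 at an unadjusted p under 0.05), the median difference was -0.16 and 5 of 7 were lower in value. Ugp2, which makes UDP-glucose, was -0.31 ± 0.11 (SE, adjusted p = 0.201), and Uap1, which makes UDP-N-acetylglucosamine, was -0.19 ± 0.11 (0.373). Of 5 tested hyaluronan-breakdown genes (Hyal3, Hyal4, Spam1 and Cemip were not tested), 0 passed (2 unadjusted), with a median of 0.03. The hyaluronidase Hyal1 was 0.40 ± 0.14 (adjusted p = 0.183) and the beta-hexosaminidase subunit Hexa was 0.39 ± 0.15 (0.233).

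Of 14 tested hyaluronan-binding genes, 1 passed, Tnfaip6, with a median of -0.09. Itih4, an inter-alpha-inhibitor heavy chain, was -0.36 ± 0.17 (SE, adjusted p = 0.312). Of 4 tested lecticans and link proteins (Hapln2 and Hapln4 were not tested), 0 passed (1 unadjusted) and all 4 were higher in value, with a median of 0.24. Aggrecan (Acan), the cartilage relative of versican, was 0.36 ± 0.14 (adjusted p = 0.247), and brevican (Bcan) was 0.33 ± 0.21 (0.446). Acan was 0.68 ± 0.14 in heterozygous against wild-type embryos (adjusted p = 0.232).

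Of 12 tested versican partners and proteases (Adamts5, Adamts20 and Tnr were not tested), 0 passed (3 unadjusted), with a median of 0.10. Adamts1, a protease that cuts versican, was -0.65 ± 0.15 (SE, adjusted p = 0.0669), and Adamts9, which cuts it too, was 0.38 ± 0.15 (0.242). Of 19 genes that build chondroitin sulfate, 0 passed (2 unadjusted), with a median of -0.03. Chst3 was 0.38 ± 0.10 (adjusted p = 0.103) and Chst12 was 0.25 ± 0.09 (0.196), both sulfotransferases. Of 6 tested relatives of vitrin with von Willebrand factor A domains (Matn1 was not tested), 0 passed (1 unadjusted), with a median of -0.12 and 5 of 6 lower in value. Matn3 was -0.39 ± 0.13 (adjusted p = 0.19) and Vwa2 was -0.25 ± 0.16 (0.453). In heterozygous against wild-type and in homozygous against heterozygous embryos 0 genes of these lists passed the threshold in limma (0.00886% and 0.0133% of all genes did). In the first comparison 7 of the 67 (10.4%, 0 to 2 a list) had an unadjusted p under 0.05, beside 15.4% of all genes. In the second 8 of the 67 (11.9%, 0 to 3 a list) did, beside 5.99%.

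**Figure D4:**
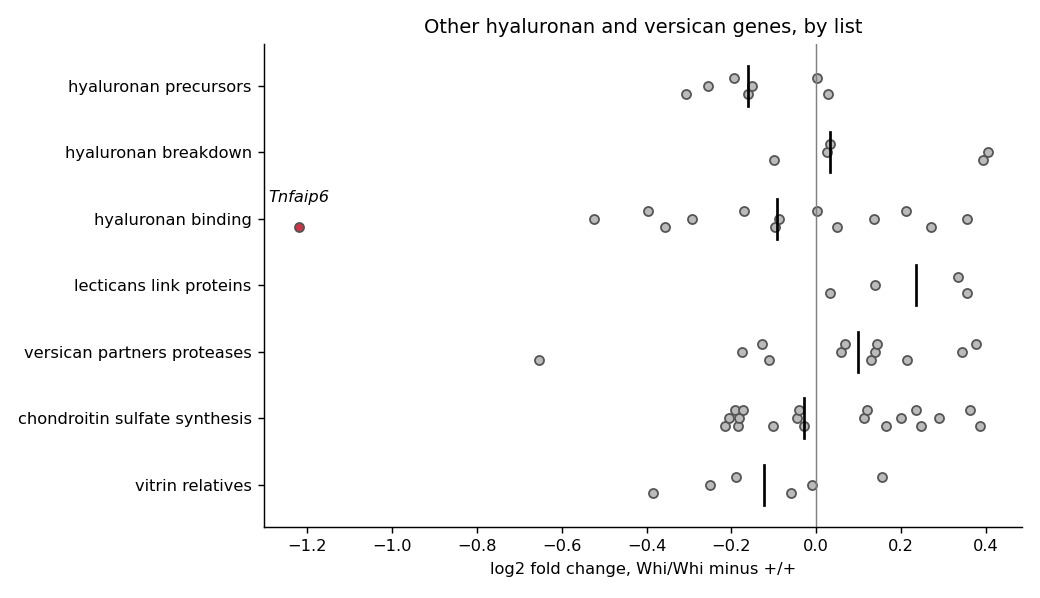
Log2 difference of homozygous from wild-type embryos for each tested gene of the 7 other pathway lists, 1 row a list, with each point a gene and a black bar at the list's median. 1 gene passed the threshold, Tnfaip6 at -1.22, and the list medians lie between -0.16 and 0.24.

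Markers of the cells that could hold these transcripts were read on the same arrays. The mean scaled log2 signal over 11 mesenchyme markers was 0.40 to 0.69 in wild-type, -0.01 to 0.53 in heterozygous and -0.19 to 0.06 in homozygous arrays, so it was lower in homozygous arrays without overlap with wild type. All 11 passed the filter on dim probes. In homozygous against wild-type embryos 10 of 11 were lower in value, beside 46.5% of all genes tested, with a median difference of -0.29. The transcription factor genes Prrx1 (-1.82 ± 0.30, SE, adjusted p = 0.0129 in limma) and Twist1 (-0.93 ± 0.12, 0.00394) passed the threshold, beside 1.35% of all genes. The others did not, and they ran from -1.29 for Pax1 to 0.33 for Twist2. These 4 markers were singled out after their values were seen. Over 12 heart muscle markers it was 2.88 to 3.46 in wild-type and 3.15 to 3.68 in homozygous arrays. Over 7 endothelial and endocardial markers the ranges were -1.58 to -1.32 in wild-type, -1.42 to -1.17 in heterozygous and -1.58 to -1.32 in homozygous arrays. Over 8 neural tube markers they were 0.37 to 0.92, 0.49 to 0.64 and 0.25 to 0.75. Over 5 of 6 floor plate and notochord markers (Noto was never well above background) they were -2.12 to -1.44, -2.01 to -1.04 and -1.99 to -1.41. Of the neural tube markers too, 7 of 8 were lower in value in homozygous than in wild-type embryos, with a median difference of -0.18. It was 1 of 12 for heart muscle, 3 of 7 for endothelium and endocardium and 3 of 5 for floor plate and notochord. The part of the mesenchyme markers in the values of Has2, Vcan, Hapln1 and Vit was not tested.

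Heterozygous replicate 1 stood apart in the heart muscle markers, at -1.11, where the other heterozygous arrays were 2.99 to 3.40. Without it the heterozygous minus wild-type differences were -0.35 for Has2, -0.30 for Vcan, -0.58 for Hapln1 and -0.75 for Vit, against -0.38, -0.37, -0.61 and -0.80 with it. The homozygous minus wild-type differences stayed at -0.92, -0.75, -0.82 and -2.11.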

How the data were processed

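The deposited scanner files were read by Agilent Feature Extraction 10.7.3.1, as the submitters' processing notes say, which give limma too, without a version. Processed signal is an intensity, background-subtracted by the scanner software per the file headers, and the deposited value table held the same numbers. Here log2 processed signal minus each array's 75th percentile was compared, without 1377 control spots and without outlier spots. A probe entered the fit if the scanner's above-background flag was set in every array of any 1 genotype, and the brightest probe stood for a gene (27572 probes, 22585 genes). limma 3.58.1 (R 4.3.3) fitted one mean per genotype over all 12 arrays, with Benjamini-Hochberg adjustment over all genes. The scripts were tested on simulated data. The members, lists and markers were chosen with earlier results of these data known. Named were all member probes, Has2os, list genes past the threshold, the 2 list genes of smallest p, and the 3 genes most like each member. Symbols came from RefSeq tables.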

Additional observations from a re-analysis of the deposited data

Results flagged for a closer look

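In 1 of 51 probe-by-genotype groups of 4 arrays, an array lay far from the others. On the Vcan probe A_52_P1044655 heterozygous replicate 2 read -4.87, where the other heterozygous arrays read -3.75 to -3.53. Its gap was 0.834 of the range of the group. Chance sets apart about 1 in 20 groups by this measure. Replicate 2, a number that only names a sample, was also lowest in wild-type (-4.61) and homozygous (-4.93) arrays on this probe. These 3 arrays share 50 as the first number in the sample title. Wild-type replicate 3 has that number too and read -3.53.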

How the results depend on the processing

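Of the 7 tested members, 4 passed the threshold for homozygous minus wild type, and 3 to 4 did when each array was left out in turn. With the first number of the sample title as a block, a number the labels do not explain, 1 did, Vit. Homozygous replicates 1 and 4 drop out of that comparison, because no other array shares their numbers. With the title number the log2 differences were -2.27 for Vit, -0.93 for Has2, -0.78 for Vcan and -0.84 for Hapln1. With slide position as a block the difference from wild type rests on 1 wild-type array, so no count is given. Whether the calls hold beside position cannot be judged from that fit. Its differences were -0.80 for Has2, -0.57 for Vcan, -0.51 for Hapln1 and -1.98 for Vit, each smaller in size than in the main fit. Hapln1 alone left the threshold with normexp background correction, at -0.69. For homozygous minus heterozygous 1 member passed (Vit) and 0 did with normexp (-0.73), quantile normalization (-1.24), position (-1.22), the title number (-1.47) or a fit on only the genotypes compared (-1.30). That count was 0 to 1 when each array was left out. Over all genes, 305 passed for homozygous minus wild type, 110 of them higher, against 90 with normexp (9 higher) and 253 with array median scaling (56 higher). With the title number as a block, where homozygous replicates 1 and 4 drop out, 19 did (4 higher). The count was 532 with array weights (221 higher), 188 with no filter on dim probes (52 higher) and 112 to 445 when each array was left out. The cause was not tested. Has1, Has3 and 2 Cd44 probes lie near background, where the signal limits what can be read, and 4 arrays a genotype limit the precision of the rest. The title number is shared by arrays of different genotypes. Deviations from the genotype means over 22221 genes had a median r of 0.02 in 11 such pairs with the same number (-0.32 to 0.29). In 37 pairs with other numbers the median was 0.02 (-0.34 to 0.24). So few pairs with so wide a spread cannot decide whether the number pairs the samples, and the main fit did not use it.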
